A study of Caenorhabditis elegans with 4 samples.

Results

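The regions described here are the broad stretches of RNA polymerase II occupancy in late embryos of the nematode *Caenorhabditis elegans*, chosen by width as every region of 2000 bp or more in the authors' list of polymerase II regions. There were 372 such regions among 5364, which is 6.94% of the list. Width is the end of a region minus its start plus 1, and all coordinates are on WormBase build WS180. The 4992 regions under 2000 bp are called narrower here.

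The list came from chromatin immunoprecipitation followed by sequencing (ChIP-seq), which recovers DNA cross-linked to a chosen protein. The 2 ChIP libraries, replicates 1 and 2, were precipitated with the mouse monoclonal antibody 8WG16 against the heptapeptide repeat at the C-terminus of the largest polymerase subunit, and the 2 input libraries, also replicates 1 and 2, were chromatin without precipitation. All 4 came from the wild-type strain N2, labelled hermaphrodite, as late embryos taken 4.5 hours after the early embryo at 20 °C, with no transgene or treatment named. Whole embryos were used, so the list mixes all embryonic cell types, and stronger occupancy in a few cells cannot be told apart from weaker occupancy in many. The protocol text shared by the samples speaks of a serum against GFP, in conflict with the antibody named for the ChIP samples. The list joins both replicates and gives each region 1 q-value, which is a p-value adjusted for the number of tests, with no value per library, so there is no replicate spread, and no difference below carries a test. The depth of the libraries is unknown from the deposited file. The interval beside a share is the exact 95% Clopper-Pearson one. It covers counting error only and treats regions as independent although they cluster.

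RNA polymerase II transcribes the protein-coding genes. It binds at promoters, can pause just downstream of them, and moves through the gene body to and beyond the end of the gene. A narrow stretch of occupancy is the usual picture at a promoter, whereas occupancy spread over a long stretch is typically seen along a gene, or a row of neighbouring genes, with polymerases throughout. *C. elegans* genes are compact and often close together, and some are transcribed as operons whose shared transcript is divided by trans-splicing. The X chromosome of hermaphrodites is subject to dosage compensation, which lowers transcription from both copies. The gene table used here is of another assembly, WBcel235, so it served only for the number and length of genes on each chromosome. Genes under single regions are not named for that reason.

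The broad regions ranged in width from 2000 to 12568 bp, with a median of 3037 bp and the middle 50% between 2372 and 4297 bp. Their number dropped quickly with width: 179 lay between 2000 and 2999 bp, 85 between 3000 and 3999 bp, 45 between 4000 and 4999 bp, 46 between 5000 and 7499 bp and 8 between 7500 and 9999 bp. Only 9 reached 10000 bp. These 9 were 2.42% of the broad regions and held 7.35% of the bases in them. Together the broad regions covered 1362 kb, or 34.8% of all bases in the list. The width limit fell in a continuous distribution, since 213 further regions lay between 1500 and 1999 bp. The 5 members closest to the limit spanned 2000, 2001, 2003, 2012 and 2012 bp, and the 5 closest regions outside it spanned 1996, 1986, 1985, 1982 and 1982 bp. The q-values of those 5 members ran from 2.05e-25 to 5.72e-10 and those of the 5 regions outside from 6.09e-60 to 7.07e-12, so the sets overlapped.

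The widest broad region, at 12568 bp, lay on chromosome IV (5977101 to 5989668) with another called region only 308 bp away. On chromosome I the widest spanned 12044 bp (5302303 to 5314346), and its closest neighbour, 240 bp away on the left, was itself 2154 bp wide. On III the widest, at 11945 bp (9764659 to 9776603), was flanked on the right by another broad region of 3026 bp. Chromosome IV held 2 more of the 10 widest, of 11072 bp (16482578 to 16493649) and 10872 bp (13026697 to 13037568). The widest on II spanned 10902 bp (10541841 to 10552742). Chromosome V had a pair of almost equal width, 10312 bp (8784081 to 8794392) and 10248 bp (11904291 to 11914538). The widest on X spanned 10191 bp (3115877 to 3126067), and the tenth of the set, on III, spanned 9811 bp (7729169 to 7738979). All 6 chromosomes were thus represented among the 10 widest. Of these 10, 8 had a called region within 1000 bp.

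Width did not fix the q-value, although a test on read numbers favours wide regions at equal enrichment. The 10248 bp region on V had a q-value of 4.28e-23 and the 10191 bp region on X one of 7.11e-21, whereas the other 8 of the 10 widest ran from 4.15e-249 to 7.18e-101. The smallest q-value on II (1.55e-282) belonged to a region of 4862 bp (14403404 to 14408265), that on V (2.04e-219) to one of 4019 bp (19519052 to 19523070) and that on X (6.83e-253) to one of 3494 bp (12691487 to 12694980). On chromosomes I and III the widest region was also the one with the smallest q-value. Broad regions made up 92 of the 100 smallest q-values in the list, and 319 of the 372 were among the 1000 smallest. Their median q-value was 4.46e-31, against 0.000235 for the narrower regions. These values come from the same contrast as the widths and are given as a description.

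A small group of broad regions was wide yet had comparatively large q-values, in a list whose largest was 0.00998. The 8 with a q-value above 0.001 were 2.15% of the broad regions, against 36.9% of the narrower ones. They comprised 4 on X, 3 on V and 1 on IV, and none on I, II or III. The largest q-value among these 8 was 0.00852, for a 3062 bp region on X (10396179 to 10399240). Next was 0.00834, for a 3516 bp region at the far left end of V (24671 to 28186). The others on X were at 6810819 to 6814467 (3649 bp, q-value 0.00355), at 1117330 to 1119456 (2127 bp, q-value 0.00395) and at 10146442 to 10148847 (2406 bp, q-value 0.00233).

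**Figure D1:**
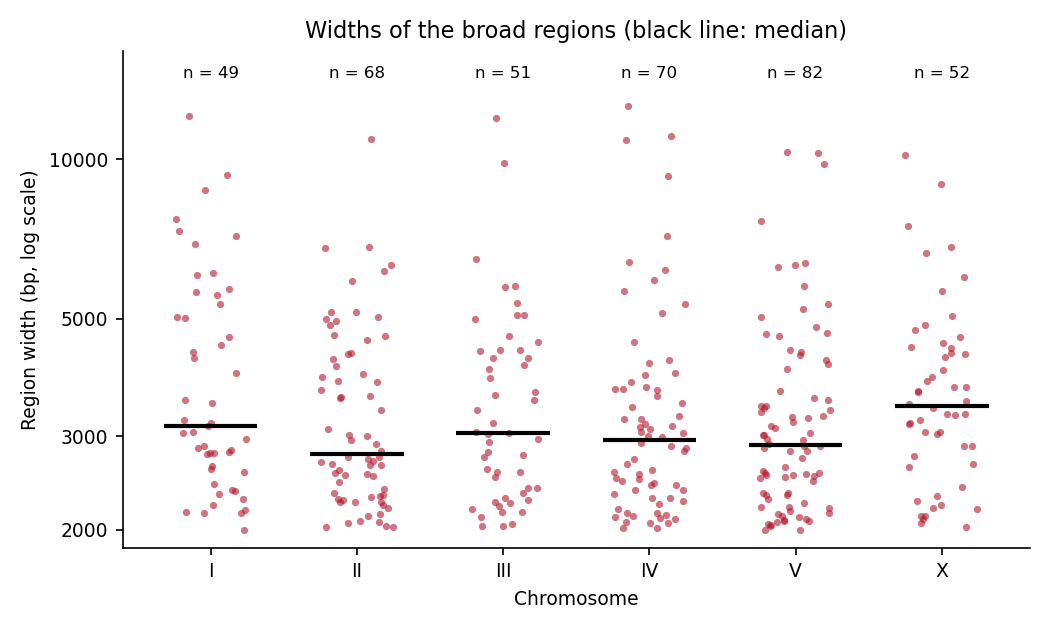
Width in bp (log scale) of each of the 372 broad regions, by chromosome; each point is 1 region, the black line is the chromosome's median and n its number of broad regions. Medians lay between 2782 bp on II and 3425 bp on X, and every chromosome had at least 1 region above 10000 bp.

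Broad regions were spread far more evenly over the chromosomes than narrower ones. Per Mb of span, with the span taken as the end of a chromosome's last region, they numbered 3.27 on I, 4.45 on II, 3.70 on III, 4.01 on IV, 3.93 on V and 2.95 on X. The highest chromosome was 1.51 times the lowest. The narrower regions numbered 89.3 per Mb on I, 58.99 on II, 68.6 on III, 45.01 on IV, 35.02 on V and 16.7 on X, where the highest was 5.34 times the lowest. The order of the chromosomes also differed between the sets. Chromosome I was next to last among the broad regions but first, by a wide margin, among the narrower ones. Among the 659 regions of 1000 to 1999 bp, 131 lay on I, 111 on II and 101 on III. A further 121 lay on IV, 124 on V and 71 on X. All narrower regions together ran from 1336 on I to 294 on X. The greater evenness was thus present in part among regions of intermediate width and was not particular to broad ones. Short regions entered the list only at a high enrichment over input, as given under the other observations. Counts of broad and narrower regions are therefore not like for like.

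Set against the number of all protein-coding genes, the evenness was closer still. The WBcel235 table lists 19971 protein-coding genes on the 6 chromosomes. Broad regions numbered 1.70 per 100 of these genes on I, 1.97 on II, 1.93 on III, 2.13 on IV, 1.64 on V and 1.90 on X, a span of 1.30 times between the highest and the lowest. The narrower regions numbered 46.4 per 100 genes on I, 26.1 on II, 35.8 on III, 23.96 on IV, 14.6 on V and 10.8 on X, a span of 4.31 times. Genes differ in length between chromosomes, and a broad region fits wholly within a single gene only where that gene is at least as long. Regions were not assigned to genes here. Genes of 2000 bp or more were 60.4% of those on X, 56.5% on I, 56.4% on III, 50.02% on IV, 44.7% on II and 41.4% on V. Per 100 of these longer genes, broad regions ranged from 3.01 on I and 3.15 on X to 4.41 on II. The highest was 1.46 times the lowest, close to the 1.51 times per Mb. The closer evenness thus depended on counting genes of all lengths.

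**Figure D2:**
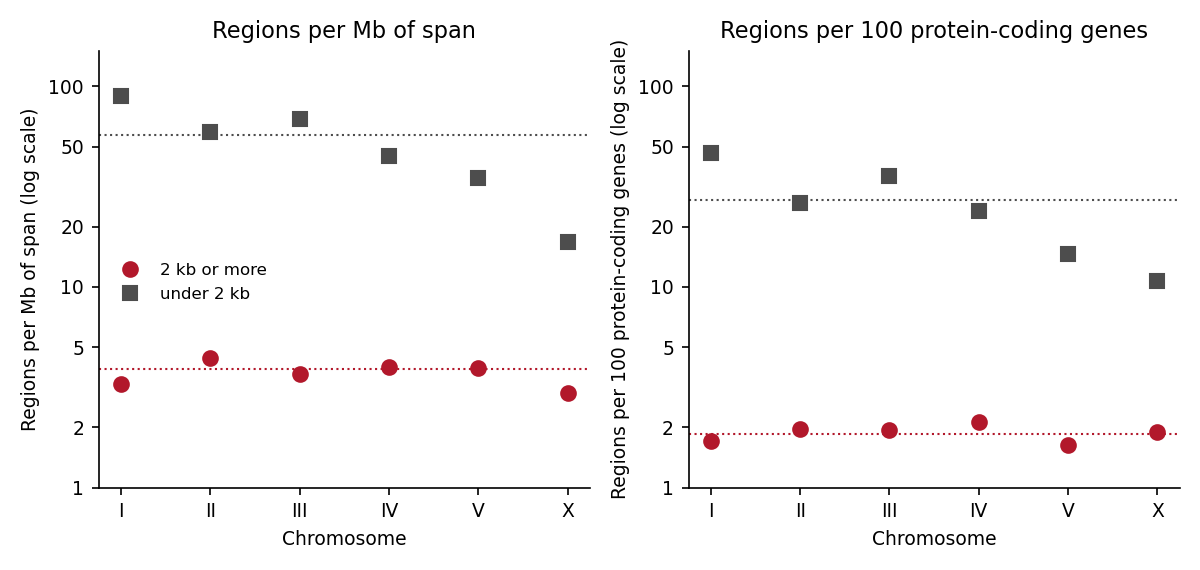
Regions of 2 kb or more (circles) and under 2 kb (squares) on each chromosome, per Mb of span (left) and per 100 protein-coding genes of WBcel235 (right), both on log axes; dotted lines are the values of the 5 autosomes together. The circles stay within 2.95 to 4.45 per Mb and 1.64 to 2.13 per 100 genes, while the squares run down to their lowest values on X.

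The X chromosome showed the contrast most plainly. X carried 52 broad regions, 14.0% of all (interval 10.6 to 17.9%), but 294 narrower ones, 5.89% of all (interval 5.25 to 6.58%), on 17.6% of the span. Its density of broad regions was 0.760 times that of the autosomes (interval from the binomial interval of the X share, 0.556 to 1.02), whereas its density of narrower regions was 0.293 times (interval 0.259 to 0.329). The intervals lay apart. The X share was also higher in each wider class below the limit. It was 2.69% under 100 bp and 4.89% from 100 to 499 bp. From 500 to 999 bp it was 6.64%, and from 1000 to 1999 bp it was 10.8%. Regions of 1500 to 1999 bp alone had 13.1% on X (interval 8.92 to 18.4%), close to the broad share. The contrast therefore did not begin at 2000 bp. The part played in it by the higher enrichment at which short regions are listed was not tested. Per 100 genes, X had 1.90 broad regions and the autosomes had 1.86, so the ratio was 1.03 (interval 0.750 to 1.38), while its ratio for narrower regions was 0.395. Per 100 genes of 2000 bp or more, the ratio of X to autosomes for broad regions was 0.825. Broad regions were therefore 15.03% of the X regions (interval 11.4 to 19.2%), against 6.38% of the autosomal regions (interval 5.72 to 7.09%). They held 49.8% of the covered bases on X and 33.0% on the autosomes. Among single autosomes the broad share ran from 3.54% on I through 5.12% on III, 7.02% on II and 8.18% on IV to 10.1% on V.

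How near X came to the autosomes depended on what counts as 1 region. When regions less than 500 bp apart were joined before widths were taken, the ratio of X to autosomes per 100 genes was 0.702, and when regions less than 1000 bp apart were joined it was 0.583. With a minimum of 3000 bp in place of 2000 bp it was 1.45. The excess of the broad share on X over that on the autosomes, 8.65 percentage points as listed, was 2.10 points after joining across gaps of less than 1000 bp and 14.5 points among regions with a q-value of at most 0.001. At either joining 56 stretches on X reached 2000 bp, close to the 52 broad regions as listed, while the autosomes had 504 and 607, against 320 as listed. With joining at 500 bp the ratio of X to autosomes per Mb was 0.520 for broad and 0.323 for narrower regions. With the 3000 bp minimum it was 1.07 and 0.298. With joining at 1000 bp the values were closer, at 0.431 and 0.377. No interval was taken at these settings, so counting error may cover that last difference.

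Within the broad set, X regions were somewhat wider. Their median width was 3425 bp (quartiles 2731 and 4401 bp), against 2962 bp (quartiles 2346 and 4213 bp) on the autosomes. X supplied 16 of the 179 regions of 2000 to 2999 bp, or 8.94% (interval 5.20 to 14.1%), but 28 of the 130 of 3000 to 4999 bp, or 21.5% (interval 14.8 to 29.6%). At 5000 bp or more, 8 of 63 were on X, or 12.7% (interval 5.65 to 23.5%), so the share did not keep increasing with width. Chromosome I supplied the most regions of 5000 bp or more, 15 of its 49 broad regions. Chromosome II had the lowest median width, 2782 bp, and 9 regions of that size among 68. These differences in width describe the chosen members, since width chose them.

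Along the chromosomes, broad and narrower regions differed most in placement on IV and X. Each chromosome's span was divided into 3 parts of equal length. The middle part held 147 of the 372 broad regions, or 39.5% (interval 34.5 to 44.7%), against 36.7% of the narrower regions. It held 39.8% of the regions of 1000 to 1999 bp, 38.7% of those of 500 to 999 bp and 29.2% of those under 100 bp. The broad share was thus like that of the next widest classes. Against all narrower regions it was the higher on 5 chromosomes of 6, and on III it was the lower, at 31.4% against 36.4%. On I, II, III and V the intervals of broad and narrower regions overlapped in every part.

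On chromosome IV the left part held 14 of 70 broad regions, or 20% (interval 11.4 to 31.3%), against 313 of 786 narrower ones, or 39.8% (interval 36.4 to 43.3%). The right part held 28 broad regions, or 40% (interval 28.5 to 52.4%), against 187 narrower ones, or 23.8% (interval 20.9 to 26.9%). Broad and narrower regions thus leaned to opposite ends of IV. These were the 2 parts, of 18 compared, whose intervals lay apart, and they were singled out after the values were seen. On X the middle part held 23 of 52 broad regions, or 44.2% (interval 30.5 to 58.7%), against 80 of 294 narrower ones, or 27.2% (interval 22.2 to 32.7%), and those intervals overlapped slightly.

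**Figure D3:**
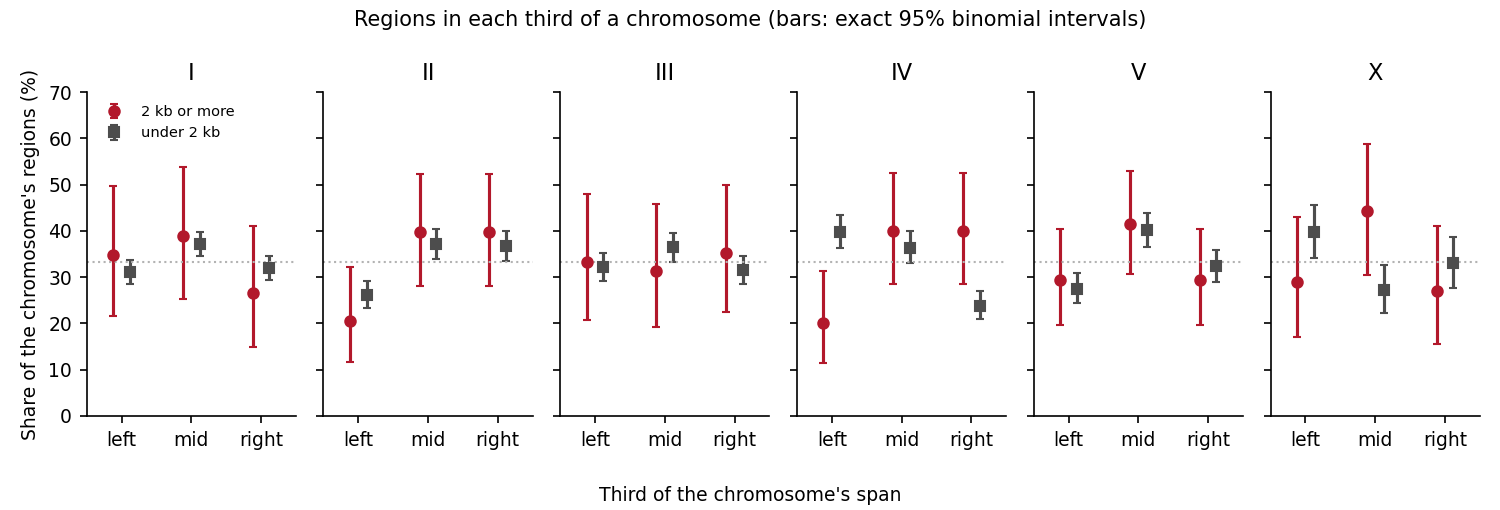
Share in percent of each chromosome's broad (circles) and narrower (squares) regions that lay in its left, middle and right part, with exact 95% binomial intervals; the dotted line marks an even spread. On IV the left part holds 20% of broad against 39.8% of narrower regions and the right part 40% against 23.8%.

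Broad regions usually had another called region close by. The nearest region, of any width, lay a median of 477.5 bp from the edge of a broad region (interquartile range 258 to 2850 bp), against 1032.5 bp for narrower regions (361 to 3897 bp). A neighbour within 2000 bp was present for 267 of 372 broad regions, or 71.8% (interval 66.9 to 76.3%), against 62.7% of narrower ones (interval 61.4 to 64.1%). The median gap was the smaller for broad regions on all 6 chromosomes. It was 297 bp against 779.5 bp on I, 337 bp against 1191 bp on III and 953 bp against 4205.5 bp on X. The comparison holds for gaps between edges. Measured between midpoints, where a region's own width enters, the ratio of broad to narrower medians turned to 1.88 in place of 0.462, and after joining regions less than 1000 bp apart the ratio between edges was 0.816. No gap in the list was below 200 bp, so pieces closer than that never appear as separate regions.

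This closeness was shared with regions of intermediate width. The 659 regions of 1000 to 1999 bp had a median nearest gap of 468 bp, and 76.9% of them (interval 73.5 to 80.1%) had a neighbour within 2000 bp. Broad regions had the smaller median gap on 4 chromosomes and the larger on 2, IV and V. The median gap was longest for the shortest regions, at 1482 bp below 100 bp and 1412 bp from 100 to 499 bp, and was 751.5 bp from 500 to 999 bp. Beyond 1000 bp it moved up and down with no steady trend. It was 417 bp from 1500 to 1999 bp, 498 bp from 2000 to 2499 bp, 394 bp from 2500 to 2999 bp, 696 bp from 3000 to 3999 bp, 481 bp from 4000 to 4999 bp and 662.5 bp from 5000 to 7499 bp. It was 328.5 bp for the 8 regions from 7500 to 9999 bp and 308 bp for the 9 above that. Within the broad set, width and the nearest gap were unrelated (Spearman rho of -0.003 across the 372 regions, which share libraries and are not independent).

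A called region within 1000 bp was present on both sides of 76 broad regions (20.4%), on a single side of 161 (43.3%) and on neither side of 135 (36.3%). Among narrower regions the shares were 14.7%, 34.6% and 50.7%. Among regions of 1000 to 1999 bp they were 21.5%, 44.9% and 33.5%, so this crowding was not particular to broad regions. The regions directly beside a broad region had a median width of 562 bp, against 420 bp for those beside a narrower region. Beside regions of 1000 to 1999 bp that median was 517 bp. Narrower regions numbered 0.851 per kb and side at 200 to 500 bp from a broad edge, 0.266 at 500 to 1000 bp, 0.149 at 2000 to 5000 bp, 0.0556 at 10000 to 20000 bp and 0.0494 at 20000 to 50000 bp. The same profile around regions of 1000 to 1999 bp ran from 0.862 to 0.0513. On X both profiles were lower, starting at 0.545 around 52 broad and 0.516 around 71 intermediate regions. The density was highest in the first 500 bp from the edge. From 10000 to 20000 bp to 20000 to 50000 bp it still dropped on X, with 0.0221 and 0.0128 around broad regions.

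**Figure D4:**
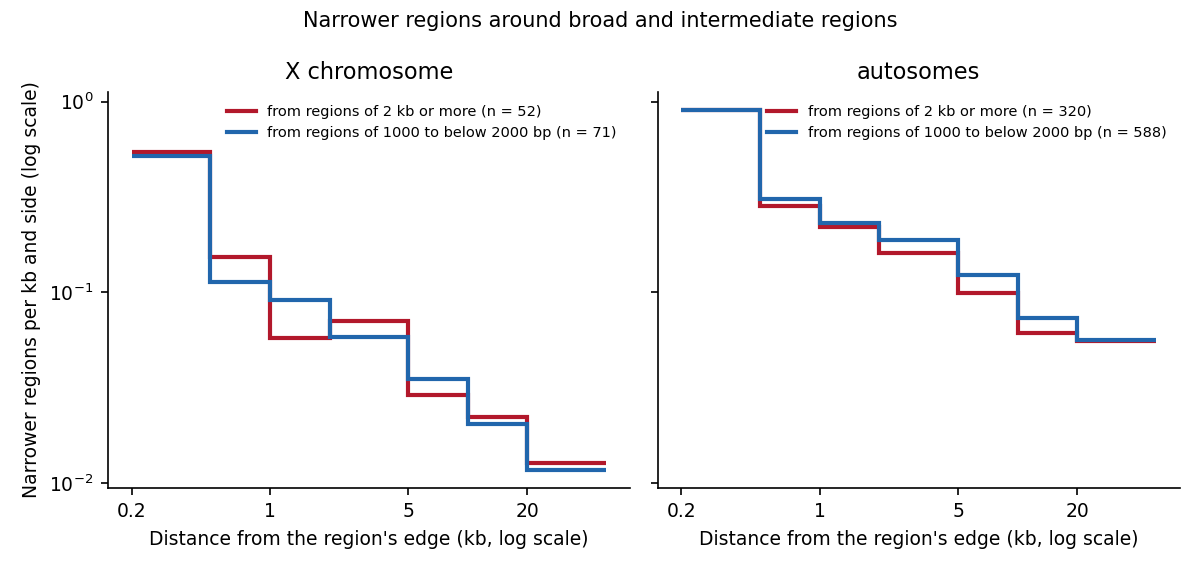
Number of narrower regions per kb and side (log axis) by distance in kb (log axis) from the edge of regions of 2 kb or more and from the edge of regions of 1000 to 1999 bp, on X and on the autosomes. The lines of both sources run close together, from 0.545 and 0.516 on X, and from 0.901 and 0.904 on the autosomes, in the first bin.

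At the other extreme, 31 broad regions (8.33%) had no called region within 20000 bp, against 7.63% of narrower regions. Among regions of 1000 to 1999 bp the share was lower, at 5.01%. The most isolated broad region was one of 3723 bp on IV (16167341 to 16171063), 148382 bp from its nearest neighbour. Next were the 4019 bp region on V with the smallest q-value of that chromosome (19519052 to 19523070), 90935 bp from any other, and a 2199 bp region on X (11374003 to 11376201), 77366 bp from any other. The X region with the smallest q-value (12691487 to 12694980) also stood alone, 26153 bp from its nearest neighbour. A small q-value was therefore reached in crowded and in empty surroundings alike.

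Some broad regions lay close to each other. Between successive broad regions the median gap was 166 kb (quartiles 46.3 and 347 kb), and 55 of the 366 gaps (15.03%) were under 10 kb and 25 of these were under 1000 bp. Only 12 gaps fell between 10 and 20 kb. Successive broad regions had a median of 7 narrower regions between them over all chromosomes, 19.5 on I and 3 on X. In 37 cases they had none, and in 23 of those the gap was under 1000 bp. The closest pair lay on II, where regions of 5046 bp (1232981 to 1238026) and 4668 bp (1238230 to 1242897) were 203 bp apart. A pair on X (13950349 to 13954646 and 13954852 to 13957511) was 205 bp apart. A further pair on II, of 2258 bp and 2257 bp (4582551 to 4584808 and 4585015 to 4587271), was 206 bp apart.

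That last pair belonged to a dense stretch. On II, 3 broad regions in a row covered 90.1% of the 9.09 kb from 4582551 to 4591643, and when regions less than 1000 bp apart were joined, 7 regions, 4 of them broad, formed a stretch of 20556 bp (4571088 to 4591643), the longest obtained. A similar row of 3 on V covered 92.9% of 9.20 kb (20663823 to 20673026). Rows on IV were sparse by comparison. There, 3 broad regions in a row covered 16.4% of 72.0 kb (10864445 to 10936470), and 4 broad regions followed each other with no narrower region between them over 326 kb (16167341 to 16493649), of which they covered only 5.96%, and it ended with the 11072 bp region named above. In all, 303 broad regions had no broad region as a direct neighbour on either side, and 69 (18.5%, interval 14.7 to 22.9%) had at least 1, against 20.5% of the regions of 1000 to 1999 bp and 13.0% of all narrower regions. The share of broad regions next to another depended on the limits used: it was 9.33% with a minimum of 3000 bp, 28.9% with 1500 bp and 34.2% after joining across gaps of less than 1000 bp.

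Counted in fixed windows of 100 kb, 284 of 1002 windows (28.3%) held the midpoint of at least 1 broad region. The share ran from 24.3% on X and 26.7% on I to 31.4% on II and IV. Most of these windows held a single one (210), 62 held 2, 10 held 3 and 2 held 4. The fullest were 4500001 to 4600000 on II, with 4 broad regions covering 14.4 kb beside 8 narrower ones, and 7800001 to 7900000 on V, with 4 covering 12.8 kb beside 6 narrower ones. On I, III, IV and X the fullest window held 3, at 11000001 to 11100000, 800001 to 900000, 14600001 to 14700000 and 10500001 to 10600000.

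Long stretches without a broad region were not empty of polymerase. The longest, 1896 kb on V (1876360 to 3772045), contained 30 narrower regions. The longest on I, 1879 kb (12741831 to 14620446), contained 147, and that on III, 1653 kb (886042 to 2539462), contained 93. On IV, 1344 kb (567112 to 1910854) contained 66, and on II, 1061 kb (172027 to 1232980) contained 47. On X the longest, 1337 kb (15274563 to 16611519), contained 23.

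Joining near regions showed how much of the broad class depends on where the list divides a stretch. Joined across gaps of less than 500 bp, the list became 4247 stretches, of which 560 reached 2000 bp. Of these, 344 contained at least 1 broad region, and the remaining 216 were made of narrower regions alone. Of the 344, 161 (46.8%) had taken in at least 1 further region, and the 344 had a median width of 4151.5 bp. The widest stretch at this setting was 19268 bp on IV (5970401 to 5989668), where 5 narrower regions joined the 12568 bp region. Across gaps of less than 1000 bp, 663 stretches reached 2000 bp and 329 of them held no broad region.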

How the data were processed

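ChIP and input chromatin of *C. elegans* late embryos were sequenced in 2 libraries each. The authors deposited 1 combined list of regions on WormBase WS180, per the file headers, with PeakSeq named as the source of each row and a q-value per region as the sole measurement. The alignment of reads, the settings of PeakSeq and the joining of replicates are steps that the sources used here do not give. Protocols in the labels state fixation in 2% formaldehyde, quenching in 100 mM Tris, and sonication.

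Each width and gap was taken from the 1-based starts and ends, with Python 3.11.15, numpy 2.4.6, pandas 2.3.3 and scipy 1.17.1, and plotted with matplotlib 3.10.9. Gaps are edge to edge. Gene numbers came from the RefSeq table of WBcel235, another build. Intervals of density ratios were derived from the exact 95% interval of the X share, with spans and gene numbers held fixed. Functions were tested on simulated data. The members, the comparisons and the alternatives were chosen with earlier results of these data known. The regions named are the 10 widest, the widest and the smallest q-value of each chromosome, those next to the width limit, the closest pairs, the most isolated, rows of 4 or more, fullest windows, longest stretches and extreme tag ratios; rows of 3, the regions with a q-value above 0.001 and joined stretches were added after seeing values. Sequences were not used here, since they need a genome of WS180.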

Additional observations from a re-analysis of the deposited data

How the results depend on the processing

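The settings were a minimum width of 1500 or 3000 bp, a q-value of at most 0.001, joining across gaps of less than 500 or 1000 bp, leaving out regions under 100 bp, chromosome I or chromosome V, and 4 settings for single results. Ratios for narrower regions and per 100 genes were added after seeing the data. Of 90 values, 56 moved by less than their counting interval (for the number of regions and the share of bases, by less than 1.5 times), 30 moved by more and 4 changed direction. With a minimum of 1500 bp, 585 regions counted as broad, the X excess in the share of regions that are broad was 13.1 points, 28.9% were next to a broad one, and the tag ratio of broad over narrower was 0.941. With 3000 bp, there were 193 regions, X to autosome ratios of 1.07 per Mb and 1.45 per 100 genes, 9.33% next to a broad one and a tag ratio that turned to 1.02. Under the 0.001 limit on q-values, the X excess was 14.5 points, 24.2% were next to a broad one, the tag ratio was 0.933 and the X ratio of narrower regions 0.237. Joining at 500 bp gave 560 regions, 53.9% of bases, X ratios of 0.520 per Mb and 0.702 per 100 genes, 25.9% next to a broad one and a gap ratio of broad over narrower of 0.630 in place of 0.462. Joining at 1000 bp gave 663 regions, 65.1% of bases, X ratios of 0.431 and 0.583, 0.377 for narrower regions, an X excess of 2.10 points, 34.2% next to a broad one and a gap ratio of 0.816. Joining removes short gaps and adds wide stretches by construction. Measured between midpoints, the gap ratio turned to 1.88, since a region's own width enters that distance. Within 1000 bp, the excess of broad regions with a neighbour was 14.5 points in place of 9.05. The middle 50% of the autosomes held 59.7% of broad regions. The narrower middle part used above held 38.75% of autosomal broad regions and 37.3% of autosomal narrower ones. A wider middle holds a larger share by construction, so the count of this value among the 30 follows from the setting. It says nothing about placement, since no share of narrower regions is given for the middle 50%. Without regions under 100 bp or without V the tag ratio turned to 1.03 or 1.02, and without I or V the X ratio of narrower regions was 0.335 or 0.259. The cause was not tested. As listed, the tag ratio was 0.993, with a counting interval of 0.949 to 1.030. The tag ratios that changed direction all lay inside that interval, so their turn is within counting error. No paired analysis was possible because no library has values of its own in the list, which also kept replicates from being left out in turn. Without depth per library, stretches below the q-value limit cannot be told from unoccupied sequence.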

Other observations

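The q-values hold whole numbers that can be read out. PeakSeq is known to compare ChIP tags with scaled input tags by a binomial test with equal odds and to correct the p-values by rank. With a total of 19306 candidates and a rank 6 above the position in the list, each of the 5364 p-values equalled such a binomial tail for exactly 1 pair of whole numbers, with a largest error of 7.84e-12 on the natural log scale. The total was found in a narrower search, with pairs of up to 150 tags and the last 400 regions in the list, in which it matched 83.75% of them and the next best total 2.75%. The larger number is read below as ChIP tags and the other as scaled input tags of both replicates together. The labels do not state this, and the values come from the same contrast as the widths, so they are given as a description with no test.

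Read in this way, the 372 broad regions held 332765 ChIP tags and 140800 input tags, and their ChIP tags were 35.8% of those in the list. A broad region had a median of 692 ChIP tags (296 to 3505) against 322 input tags (72 to 1444). ChIP tags were a median of 2.22 times the input tags (quartiles 1.80 and 2.83, range 1.16 to 6.23). Narrower regions had a median ratio of 2.23, but short regions enter the list only at a high ratio, so this is no match of like with like. The lowest listed ratio was 2.14 under 100 bp and 1.48 from 100 to 499 bp. The broad median was higher than that of the regions of 1000 to 1999 bp, which was 1.93 over the list, on all 6 chromosomes. ChIP tags per kb were also higher on all 6, with medians of 217 in broad and 198 in these intermediate regions, while the medians of input tags per kb were 103 in broad and 102 in intermediate regions, higher in broad on 3 chromosomes. Within the broad set the median ratio was mostly higher in wider classes, at 2.06 from 2000 to 2499 bp, 2.16 from 2500 to 2999 bp, 2.12 from 3000 to 3999 bp, 2.32 from 4000 to 4999 bp and from 5000 to 7499 bp, 2.48 from 7500 to 9999 bp and 2.64 for the 9 regions above that. Across single regions the relation was weak (Spearman rho of 0.15 across the 372 regions, which share libraries).

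Broad regions on X had a median ratio of 1.71 (interquartile range 1.47 to 2.02), against 2.28 on the autosomes (1.88 to 2.87). Single autosomes ran from 2.01 on V and 2.12 on IV to 2.37 on III, 2.49 on I and 2.55 on II. X had 201 ChIP and 121 input tags per kb, against 219 and 101 on the autosomes together. Its ChIP value was like those of V (201) and IV (208), and below those of II (227), I (233) and III (245). Its input value was above that of every single autosome, the highest of which was 107 on III. The intermediate regions differed in the same directions, so the lower ratio on X was not particular to broad regions. Their median ratio was 1.57 on X and 1.99 on the autosomes. They had 190 ChIP and 117 input tags per kb on X, against 199 and 100 on the autosomes together. Their ChIP values on IV (187) and V (189) were slightly below that on X, and those on I, II and III were above it. The scaling of the input is unknown, and its part in the lower ratio was not tested. A ratio of 3 or more was reached by 5 of 52 broad regions on X (9.62%) and 64 of 320 on the autosomes (20%). Among single autosomes the share was 10% on IV, like that on X, and 14.6% on V. It was 23.5% on III, 26.5% on I and 29.4% on II. The X region with the smallest q-value (12691487 to 12694980) was far from its chromosome's median, with 2018 ChIP and 406 input tags, a ratio of 4.97.

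The single regions with the highest ratios were not among the widest. The highest ratio, 6.23, belonged to a 2064 bp region on IV (8333074 to 8335137) with 1264 ChIP and 203 input tags. The isolated 4019 bp region on V (19519052 to 19523070) followed with 1543 and 259 tags, a ratio of 5.96. A 2071 bp region on II (2242620 to 2244690) reached 5.36 with only 386 and 72 tags, as its input was the lowest per kb of all broad regions (34.8). The other 2 of the highest 5 were a 3944 bp region on IV (7485497 to 7489440), at 5.22, and a 3284 bp region on V (9342889 to 9346172), at 5.02. None of the 10 widest was among them: 8 of those had ratios between 2.11 and 3.04, and the 10248 bp region on V and the 10191 bp region on X had 1.43 and 1.39.

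The lowest ratio, 1.16, was in the 3516 bp region at the left end of V (24671 to 28186). Its 804 ChIP tags were not few, but its 693 input tags, 197 per kb, were the most per kb of any broad region. The next lowest were 3 regions on X, with ratios of 1.20 (10396179 to 10399240), 1.23 (6810819 to 6814467) and 1.28 (10146442 to 10148847), and a 3412 bp region on IV (7136293 to 7139704), also at 1.28. These 5 regions had 410 to 804 ChIP tags each.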
